A study of Drosophila melanogaster with 2 samples.

Results

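The stretch of the Drosophila melanogaster X chromosome from 15950000 to 16250000 (Release 5, BDGP5), taken as the neighbourhood of the genes disco and disco-r, held 7 of the 1723 peaks of a disco ChIP-seq experiment. A peak belonged to the stretch when its midpoint lay inside this window of 300 kb. The other 237 peaks of the X, which held 244 in all, lay outside it. The members were chosen by position, but the window was singled out with the scores of its peaks known, among them the highest of the list. All values below are therefore descriptions, and none is tested. Chromatin immunoprecipitation followed by sequencing (ChIP-seq) recovers the DNA bound by a protein with an antibody, and a peak is a stretch where the recovered reads pile up.

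The chromatin came from untreated whole embryos, collected 0 to 8 h after egg laying, so that the binding of many cell types and stages is averaged. It was crosslinked with 1.8% formaldehyde for 15 min and sonicated for 15 min. The labels' growth protocol names iso1 (y; bw cn sp) flies or transgenic flies without saying which were used for disco. The antibody is labelled KW3-disco-D2. The series has 2 samples, the ChIP, whose title names ChIP replicates 1 and 2, and the input, which is chromatin set aside before the antibody was added and serves as control. The 1 list analysed belongs to the ChIP, and only the title links it to both replicates. With 1 list there is no spread between replicates and no value has an error. The list gives no read counts, so the depth is unknown.

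The gene disco (disconnected, Dmel_CG9908) encodes a zinc finger transcription factor, named for mutants in which the larval visual nerve fails to connect to the brain. Its relative disco-r (disco-related, Dmel_CG32577) is a neighbouring gene for a similar zinc finger protein. The genes act redundantly in the gnathal segments of the embryonic head, where they work together with Hox proteins, and in the development of the ventral appendages. In the RefSeq gene table of Release 6, disco-r and disco lie next to each other on the X with 0 protein-coding genes between them. The 2 genes annotated between them are a long non-coding RNA, lncRNA:CR46211, and the microRNA gene mir-985. Beyond disco-r the next protein-coding genes are CG42354 and then CG42353. Beyond disco they are CG12507 and then kat80, which encodes a subunit of the microtubule-severing enzyme katanin. The peaks are placed on Release 5, whereas this table is of Release 6, so only the order of the genes is used. That the window holds disco and disco-r was not checked here against a Release 5 annotation, and the peaks are described by position alone, without a gene, promoter, exon or intron.

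The 7 peaks fell into 4 parts along the window. From low to high coordinates these were a tight group of 4 peaks, a single peak, the highest-scoring peak of the list and a small outlying peak. Between the start of the first and the end of the last peak lay 160 kb. The scores, which are the values of the authors' peak caller, ranged from 50.24 to 748.23, where the list as a whole has a minimum of 50.09 and a median of 68.69. The members thus occupied both ends of the list, with ranks from 1 to 1703 of 1723. The scale of the score is not named and may be one of significance, so a difference in score is not a fold of binding.

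**Figure D1:**
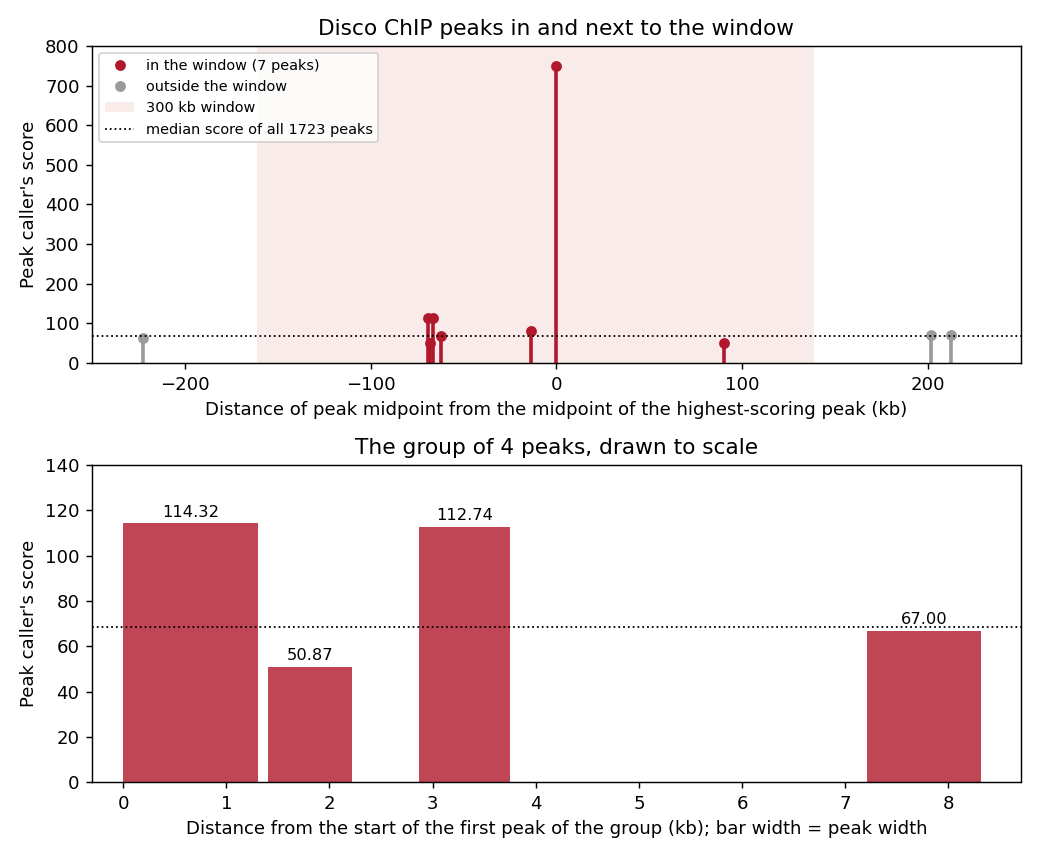
Scores of the peaks in and next to the window. In the upper panel the x axis is the distance in kb from the midpoint of the highest-scoring peak, the y axis is the peak caller's score, red marks the 7 peaks inside the shaded 300 kb window and grey those outside it, and the dotted line is the median score of the list, 68.69. The lower panel draws the group of 4 to scale, with the peak width as the width of a bar. The peak of score 748.23 stands alone above the others, which score at most 114.32.

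The highest-scoring peak covered X:16110278-16112258 and was 1981 bp wide. Its score of 748.23 exceeded the second score of the whole list by 240 and that of the X by 560. It was the only peak of the X with a score above 200, a level that 17 peaks of the list passed. The next peaks of the X were X:19654747-19656510 with a score of 188.09, X:5504783-5506262 with 177.47 and X:4318716-4319809 with 172.50. These differed from each other by little: the second of the X led the third by 10.6.

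Its width was not exceptional. By width the peak was number 550 of the list and number 50 of the X. The list held 252 other peaks within 200 bp of its width. Their scores had a median of 74.43, quartiles of 59.24 and 98.12 and a highest value of 182.56. On the X alone 40 other peaks were of like width, with a median score of 77.1 and a highest value of 152.87. Being the highest of the list, its score exceeds any such set by construction, so these values only show the scores that go with this width.

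**Figure D2:**
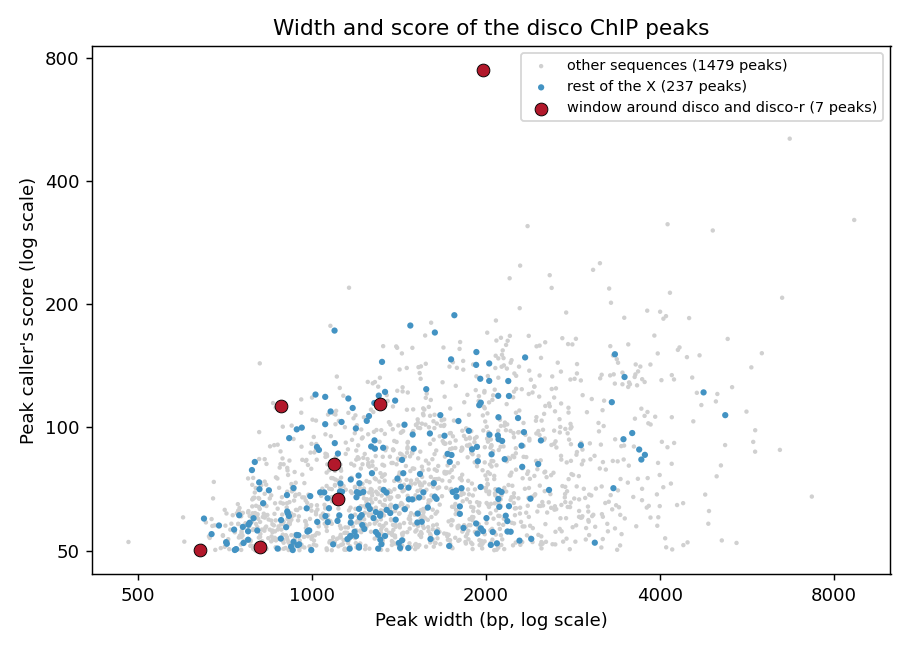
Peak width in bp (x axis, log scale) against the peak caller's score (y axis, log scale) for all 1723 peaks. Red points are the 7 peaks of the window, blue points the other 237 peaks of the X and grey points the 1479 peaks of all other sequences. The member with a score of 748.23 lies far above all points of its width, and the other 6 lie within the cloud, towards narrow widths.

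The nearest peak to it, X:16097042-16098134, ended 12.1 kb before its start. This peak was 1093 bp wide and had a score of 81.45, which placed it at rank 588 of the list and 85 of the X. On the other side no peak followed for 88.8 kb. It had 6 other peaks with midpoints within 150 kb, and the other 19 of the 20 highest-scoring peaks of the list had 3 to 12, with a median of 6. Within 50 kb it had 1 other peak, where 11 of those 19 had more, 7 had the same number and 1 had fewer. Of the 19 peaks, 11 had a nearer neighbour than its own, whose midpoint was 13.7 kb away, and 8 had a neighbour within 10 kb, which the highest-scoring peak did not.

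The group of 4 peaks lay at X:16041418-16049734, and a gap of 60.5 kb separated it from the highest-scoring peak. Its first peak, X:16041418-16042728, was 1311 bp wide with a score of 114.32. A narrow peak of 812 bp with a score of 50.87 followed after 98 bp, at X:16042827-16043638. The next, X:16044290-16045171, was 882 bp wide and reached 112.74, and the last, X:16048628-16049734, was 1107 bp wide with 67.00. High and low scores thus alternated along the group. The peaks of 114.32 and 112.74 ranked 216 and 221 in the list, close to each other, although 1 was 1311 bp wide and the other 882 bp.

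The group had the shortest span among groups of its size or larger. When peaks with midpoints within 10 kb of each other were chained, the 5 large arms held 22 groups of 4 or more peaks, 2 of them on the X. The group in the window spanned 8317 bp, the shortest of the 22, while the others spanned 9362 to 30628 bp. The second group of 4 on the X, X:11243922-11262359, spanned 18438 bp. Peaks covered 49.4% of the span of the group in the window, a share that 11 of the other 21 groups exceeded, in a range from 16.5 to 82.2%. All 4 peaks were narrower than the median peak of the list (1529 bp). Gaps under 1 kb were rare in the list: 93 of the 1711 gaps between neighbours on the large arms, or 5.44%, were that short, and 12 of the 243 on the X. Of the 6 gaps between members 2 were under 1 kb, both in this group. The gap of 98 bp was the second shortest on the X. Joined across gaps under 1 kb, the first 3 peaks of the group form 1 region of 3754 bp at X:16041418-16045171. The group would then hold fewer than 4 regions, so its rank by span rests on counting these 3 peaks separately. Whether they are separate sites or 1 broad site called in pieces cannot be told apart from a list of peaks.

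**Figure D3:**
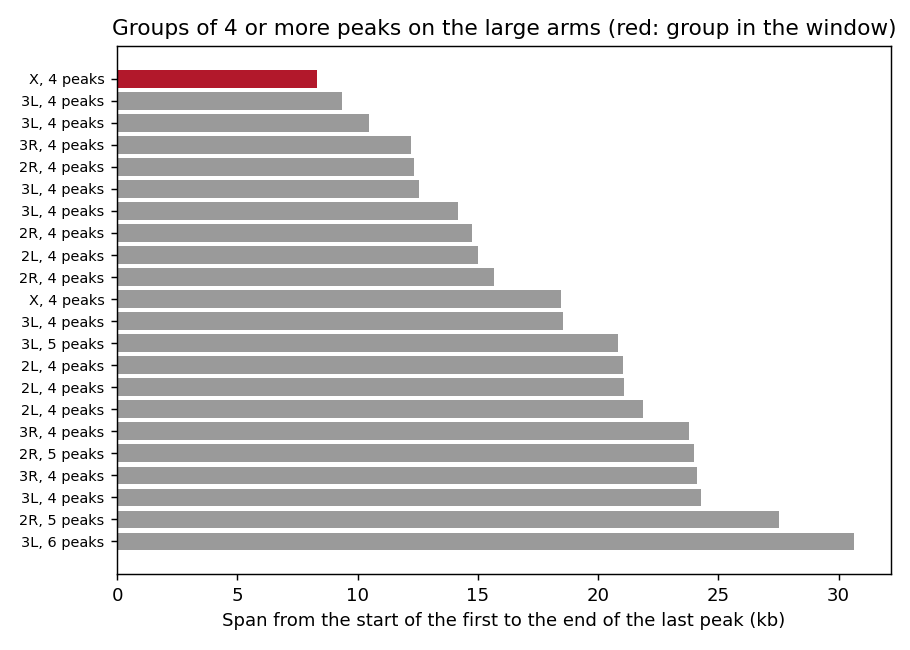
Span in kb (x axis) of each of the 22 groups of 4 or more peaks on the 5 large arms, one bar per group, labelled by arm and number of peaks and sorted by span. The red bar is the group in the window, which is the shortest at 8.32 kb; the longest spans 30.6 kb.

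The last member, X:16201031-16201671, was among the weakest and narrowest of the list. Its score of 50.24 ranked 1703 of 1723, and its width of 641 bp ranked 1720. On the X it was the narrowest of the 244 peaks and ranked 241 by score.

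Across the members, 3 of 7 scored above 100, a level reached by 18.0% of the peaks of the X and 18.8% of the whole list. A score above the median of the list was found for 4 of the 7, against 49.6% of the peaks of the X. A width above the median of the list was found for 1 of the 7, the highest-scoring peak, against 38.1% of the peaks of the X. The median score of the members was 81.45, against 68.1 on the X, and their median width was 1093 bp, against 1320.5 bp. Without the highest-scoring peak the median score of the other 6 was 74.2 and their median width 987.5 bp. The members made up 2.87% of the peaks of the X and 2.10% of the bases that peaks cover there. With 7 peaks, in a window chosen with their scores known, the higher share of scores above 100 is not read as a property of the window.

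The window was then set beside the rest of the X, divided into windows of the same length on both sides of it and inside the span from the first to the last peak. There were 68 such windows, of which 8 held no peak. The number of peaks in the other windows had a median of 3, quartiles of 1.75 and 5 and a highest value of 10. With 7 peaks the window around disco and disco-r was exceeded by 6 of the 68 and equalled by 1. The densest was X:19550001-19850000 with 10 peaks. It was followed by X:7850001-8150000, X:15350001-15650000 and X:18650001-18950000 with 9 each. The window X:15350001-15650000 ends 300 kb before the one around disco and disco-r. The windows directly before and after it held 3 and 4 peaks, with highest scores of 96.65 and 105.43.

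In its highest score the window stood apart from the other 60 windows that held a peak. Their highest scores ran from 50.55 to 188.09 with a median of 100.5, and none reached 748.23. This value was known when the window was chosen. The gap between the highest and the second score within the window was 634. In the 51 other windows with at least 2 peaks that gap was between 0.55 and 109, with a median of 21.6. As no other peak of the X scored above 188.09, this lead follows from the choice of the window and is no separate contrast. Without its highest-scoring peak the window had a highest score of 114.32, which 22 of the 60 windows exceeded.

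**Figure D4:**
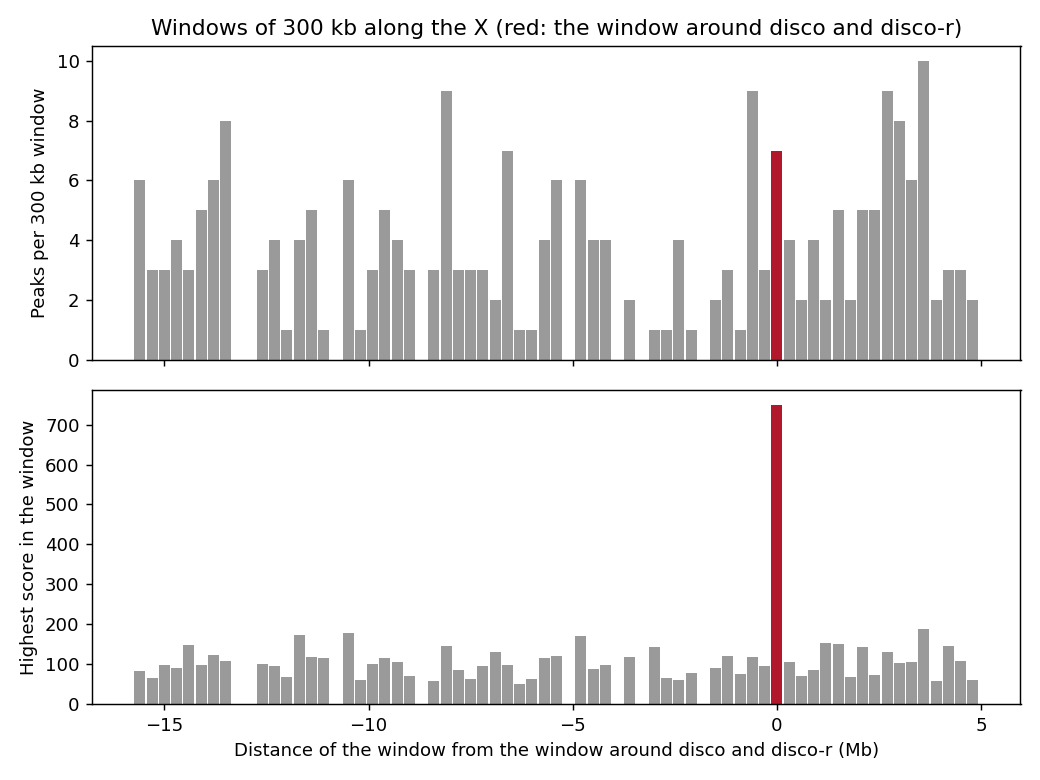
Number of peaks (upper panel) and highest score (lower panel) in each of the 69 windows of 300 kb along the X. The x axis is the distance in Mb from the window around disco and disco-r, which is drawn in red, and windows with no peak have no bar. The window holds 7 peaks, fewer than 6 of the other windows, and its highest score of 748.23 compares with at most 188.09 elsewhere.

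The median width of the peaks in the window, 1093 bp, was exceeded by 47 of the 60 other windows with a peak. Their median score, 81.45, was exceeded by 13 of the 60, and without the highest-scoring peak the median of 74.2 was exceeded by 19. Some of these 60 windows held only 1 or 2 peaks. Among the 43 other windows with at least 3 peaks, 8 had a median score above 81.45 and 36 a median width above 1093 bp. The 7 other windows with at least 7 peaks all had wider peaks, with medians of 1249 to 2101 bp, and all 7 had more bases covered than the 7827 bp (2.61%) covered here. Their median scores were lower in 5 of the 7.

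Small shifts of the window's edges would leave its members as they are. The first member lay 92.1 kb inside the lower edge and the last 48.6 kb inside the upper edge. The nearest peak outside on the lower side, X:15888036-15889105, had a score of 63.45, and its midpoint was 61.4 kb from the edge. On the upper side X:16312117-16313869, with a score of 69.52, lay 63.0 kb from the edge. A window of 200 kb around the same centre would lose the last member and hold 6 peaks, and one of 600 kb would hold 10. The members as a set had 152 kb without a peak before them and 110 kb after them. Of the 243 gaps on the X, whose median was 33.6 kb, 45 were at least as long as the first and 61 at least as long as the second, counting these gaps themselves, so stretches of this length without a peak were common on the X. Without read counts, such a stretch cannot be told from one covered too thinly for a peak to be called.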

How the data were processed

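The authors deposited 1 peak list for the disco ChIP, with a start, an end and a score for each peak. Per the submitters' processing notes the aligner was Bowtie and the build BDGP5 (Release 5). Per the file headers MACS made the peak calls. Nothing is given in the sources used here on the versions, the calling threshold or the use of the input. Whether and how the 2 ChIP replicates were combined is not given either. The score deposited by the authors has no named scale and was used only within this list. Each deposited start was taken as 0-based and raised by 1.

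Members and windows were chosen with earlier results of these data known. Windows of 300 kb were tiled outwards from the window around disco and disco-r, and were kept where they lay wholly inside the span of X peak midpoints. Medians of score and width used windows with a peak. Every member, its flanking peaks, the neighbouring genes in the gene table and the leading windows and peaks of the X are named, by a rule written at the start. The chained groups, the peaks of like width, the gaps and the surroundings of the 20 highest-scoring peaks were added later. Both disco and disco-r were matched in the gene table by symbol. No sequence is printed, since no Release 5 genome was used. The window and merging steps were tested on simulated data. Software was pandas 2.3.3, numpy 2.4.6, scipy 1.17.1 and matplotlib 3.10.9 under Python 3.11.15.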

Additional observations from a re-analysis of the deposited data

How the results depend on the processing

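Since 748.23 is the highest score of the list, no alternative that keeps this peak could place another window above it. Without this peak the highest score was 114.32, which 36.7% of the 60 other windows with a peak exceeded. The median score was then 74.2 and the median width 987.5 bp. Shares by score or width are out of the windows with a peak, and shares by number of peaks are out of all windows. Among the higher-scoring 50% of all peaks the window held 4 peaks, with a median score of 113.5 and a median width of 1202 bp. Among the highest-scoring 25% it held 3 peaks covering 4174 bp, with medians of 114.32 and 1311 bp. Of 68 other windows 2.94% had more peaks and 3 windows had as many. A higher median score was found in 50% of the 38 windows that kept a peak. With a window of 200 kb the medians were 97.1 and 1100 bp. Of 104 other windows 3.85% had more peaks than the 6 held here, and 4 windows had as many. A higher median score was found in 10.1% of the 79 windows with a peak. With 600 kb the medians were 70.4 and 1100 bp over 12119 covered bp, and 35.3% of windows had a higher median score. Peaks merged over gaps under 1 kb had a median width of 1107 bp. The share of windows with a larger median width was 87.5% with 400 kb and 87.5% against the autosomal arms. The other 60 values changed by less than 1.5 times for counts, stayed inside the 95% Wilson interval of the main share or were equal. The windows are all those tiled from 1 list, not a sample, so this interval is only a yardstick and measures no spread. Inside it, the share of windows with more peaks was 8.82% in the main setting. It ran from 7.27% for windows moved in 10 kb steps to 16.2% for merged peaks. No paired analysis was possible because the ChIP has a single list, which also means that leaving out a replicate was not possible.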
